A study of Mus musculus with 11 samples.

Results

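Of the 55401 genes listed for these libraries, 99 are oxidative phosphorylation genes, which encode subunits of the respiratory chain and of ATP synthase or help to assemble them. They were taken by symbol, under a rule that uses no measured value but their summed counts and was written with earlier results of these data known. The symbols taken were mt-Nd, mt-Co, mt-Cytb, mt-Atp, Nduf followed by a, b, c, s or v, Sdha to Sdhd, Uqcr, Cox4 to Cox8 and Atp5, without names that contain -ps. A gene also needed 10 or more counts summed over the 11 libraries: 111 names matched, and 12 stayed under that minimum. The mitochondrial genome encodes 9 of the 99 and the nuclear genome 90. The nuclear genes comprise 36 subunits of complex I, 4 of complex II, 8 of complex III, 17 of complex IV, 17 of complex V and 8 complex I assembly factors (Ndufaf1 to Ndufaf8). Ndufa4 was counted with complex IV, where its protein is now placed, and Cox6c2 is annotated as a processed pseudogene. Cyc1, the cytochrome c1 subunit of complex III, does not match the symbols, and Ndufb1-ps, a protein-coding gene in the annotation with 7118 summed counts, was left out by its name.

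Each library holds poly(A)-selected RNA of mouse trigeminal ganglion neurons, which carry sensation from the head, sorted by fluorescence after uptake of the retrograde tracer DiI. MOC1 is an oral squamous cell carcinoma line of mouse origin, and mice bearing this tumour gave 3 female and 3 male libraries. The sham controls gave 3 female and 2 male libraries. The sources used here do not give strain, age, time of sampling or the number of animals behind a library. The p-values therefore measure only the spread between libraries, which may be technical.

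Between 10757426 and 16703797 counts fell in genes per library, and all 20 pan-neuronal markers were detected. Of the 10 squamous epithelium and tumour markers, the keratins Krt5, Krt6a and Krt17 were at 0 counts in all 11 libraries, while the others had counts. Satellite glia envelop the neurons of a ganglion, and their markers were present in every library and differed between the groups. Their 16 genes summed to between 3926 and 7209 CPM (counts scaled to the total of each library) in MOC1 libraries and between 11587 and 13370 in sham libraries. The 20 pan-neuronal markers summed to between 15492 and 17492 CPM in MOC1 and between 12233 and 15056 in sham libraries. The 7 fibroblast markers, of which Dpt was at 0 counts, summed to between 59.8 and 71.8 CPM in MOC1 and between 90.2 and 179 in sham libraries. Since none of these 3 lists overlaps between the groups, a difference per neuron and a difference in the admixture of RNA from other cells cannot be told apart in these bulk samples, nor can fewer cells of a type and less RNA per cell. The squamous epithelium and tumour markers summed to between 402 and 518 CPM in MOC1 and between 406 and 462 in sham libraries, with overlap. Sham female 1 held 1436 CPM of endothelial and mural markers against at most 398 in the other libraries.

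Oxidative phosphorylation passes electrons from NADH (complex I) and succinate (complex II) through complex III and cytochrome c to oxygen (complex IV). The proton gradient built on the way drives ATP synthase (complex V). The mitochondrial genome encodes core subunits of complexes I, III, IV and V as parts of long transcripts that are cut at their tRNAs, while complex II and all other subunits are made from nuclear genes and imported. Sensory neurons, with long axons and steady ion pumping, depend heavily on this pathway.

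The mitochondrial genome encodes 13 such proteins, and 4 of them, mt-Co3, mt-Atp6, mt-Atp8 and mt-Nd4l, had 0 counts in all libraries. mt-Co2 had 13 counts in all, every one in sham male 1, and mt-Nd3 had 14, of which 12 were in sham male 1. The other 7 held between 2857 counts (mt-Nd6) and 2010866 counts (mt-Co1). These 6 empty or nearly empty genes lie next to each other at chrM:7013-10173 (GRCm38). Reads that align to several places are kept in the deposited files as a total that names no gene, so the sequence shared with other genes was measured. Every stretch of 75 bases in a mitochondrial transcript was looked up in all other annotated transcripts.

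The block chrM:6394-11042, 4649 bases long, has a copy of 7 annotated genes on chromosome 1, at chr1:24611535-24616197, which together had 35 counts. The copies held 99.5% of the 75-base windows of mt-Co2, 99.5% of mt-Atp6, 99.9% of mt-Co3, 97.8% of mt-Nd3 and 98.7% of mt-Nd4l. They held 61.5% of the windows of mt-Nd4, whose 3′ end lies outside the block, and 27.5% of those of mt-Co1, whose 5′ end does. With a further gene that lies elsewhere, 39.8% of the windows of mt-Co1 were shared in all. For mt-Nd1, mt-Nd6 and mt-Cytb no window was found in another transcript. mt-Atp8 lies inside the block and had 0 counts, but no annotated copy holds its windows. Whether shared sequence is behind the missing counts of mt-Atp8 or of the other genes in the block was not tested.

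The sequences at both edges of the block are shown because they mark where mt-Co1 and mt-Nd4 pass from sequence outside the block (lower case) into sequence that a copy gene on chromosome 1 also holds (capitals). The 40 bases in lower case were in no other annotated transcript in either gene. A stretch inside the block (mt-Co3) and one outside it (mt-Cytb, with no other transcript that holds it) are given for comparison. All are written 5′ to 3′ along the transcript, from GENCODE M21 transcripts on GRCm38. The coordinates are mt-Co1 chrM:6354-6433, Gm29216 chr1:24616145-24616184 (minus strand), mt-Nd4 chrM:11003-11082, Gm28439 chr1:24611535-24611574 (minus strand), mt-Co3 chrM:8707-8766 and mt-Cytb chrM:14245-14304.
mt-Co1: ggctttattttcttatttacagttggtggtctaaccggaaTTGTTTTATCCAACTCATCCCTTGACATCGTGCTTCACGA
Gm29216: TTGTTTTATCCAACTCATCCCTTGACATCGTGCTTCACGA
mt-Nd4: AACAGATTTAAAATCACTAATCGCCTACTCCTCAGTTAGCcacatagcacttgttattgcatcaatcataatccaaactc
Gm28439: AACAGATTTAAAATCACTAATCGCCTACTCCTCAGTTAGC
mt-Co3: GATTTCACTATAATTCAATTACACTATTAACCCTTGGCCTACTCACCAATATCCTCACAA
mt-Cytb: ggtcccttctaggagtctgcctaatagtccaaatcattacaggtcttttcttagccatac

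**Figure D1:**
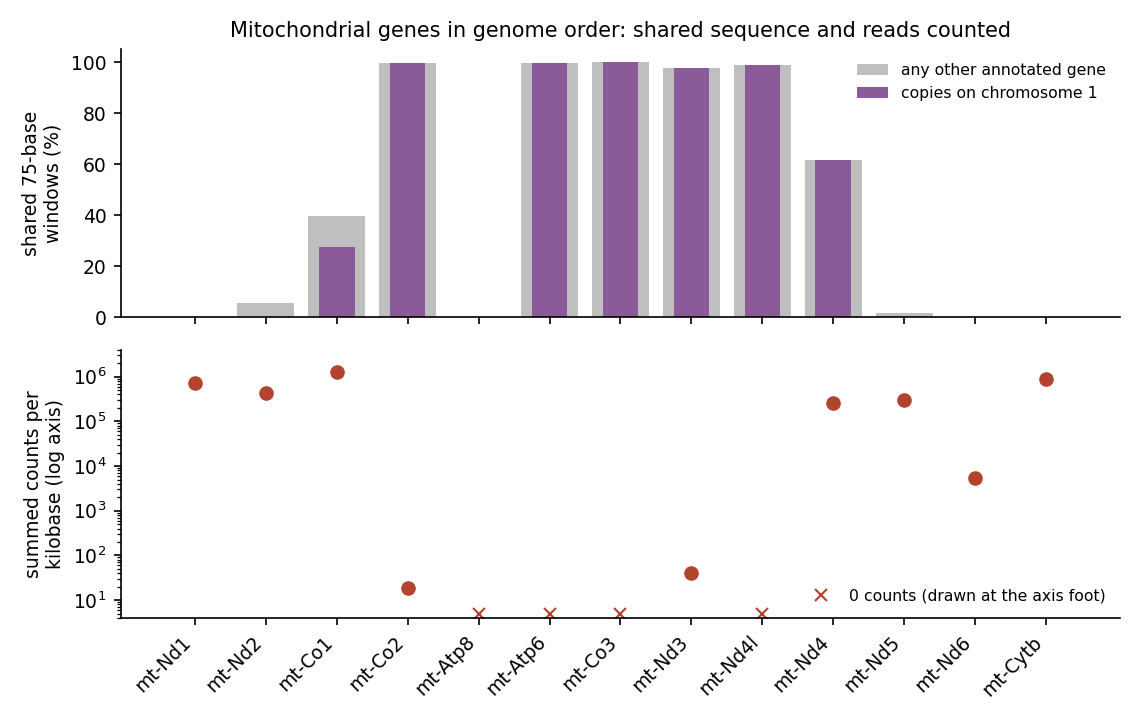
The 13 protein-coding mitochondrial genes stand in genome order. The upper bars give the percentage of 75-base windows also found in another annotated gene (grey) or in the chromosome 1 copies (purple), and the lower points give the counts summed over 11 libraries per kilobase of transcript on a log axis, with crosses for genes at 0 counts. The 6 genes from mt-Co2 to mt-Nd4l have at most 14 counts each, while mt-Co1 and mt-Nd4 on either side have 2010866 and 354719.

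Levels of mitochondrial genes were read for the 7 that could be tested. For mt-Co1 and mt-Nd4, which share part of their transcript with other genes, the part that their reads came from was not tested. Per kilobase of transcript the order was mt-Co1, mt-Cytb, mt-Nd1, mt-Nd2, mt-Nd5, mt-Nd4 and mt-Nd6 in all 11 libraries. mt-Co1, the catalytic subunit of complex IV, stood at 7008 ± 696 CPM per kilobase in MOC1 (SD, n = 6) and 8504 ± 1395 in sham libraries (SD, n = 5). mt-Nd6, the one complex I subunit encoded on the light strand, stood at 30.9 ± 10.6 and 34.3 ± 9.77 CPM per kilobase. Counted over the windows not shared with another gene, mt-Nd4 reached 3704 ± 455 CPM per 1000 windows in MOC1 and 4740 ± 914 in sham libraries (SD, n = 6 and 5). On that scale it stood above mt-Nd2, at 2503 ± 257 and 3495 ± 610.

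Mitochondrial transcripts were lower relative to nuclear ones in MOC1 than in sham libraries. The 9 mitochondrial genes summed to 30701, 29258 and 24657 CPM in MOC1 females, 22840, 28154 and 25652 in MOC1 males, 27500, 37144 and 42544 in sham females and 31574 and 30720 in sham males. The 90 nuclear genes summed to between 6398 and 7661 CPM in MOC1 and between 6451 and 7649 in sham libraries, with nearly the same range in both groups. The ratio of mitochondrial to nuclear counts was lowest at 3.57, had a median of 3.67 and was highest at 4.04 in MOC1 libraries. In sham libraries it was 4.26, 5.53 and 5.56 in females and 4.49 and 4.69 in males. Every MOC1 library lay below every sham library, within each sex as well. On the log2 scale the mean was 1.90 ± 0.07 in MOC1 (SD, n = 6) and 2.29 ± 0.18 in sham libraries (SD, n = 5), a difference of -0.39. No test was made of this ratio, since it is a score over genes picked by name with earlier results known. The satellite glia and fibroblast sums given above separate the same libraries in the same order of groups, and their part in the ratio was not tested.

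**Figure D2:**
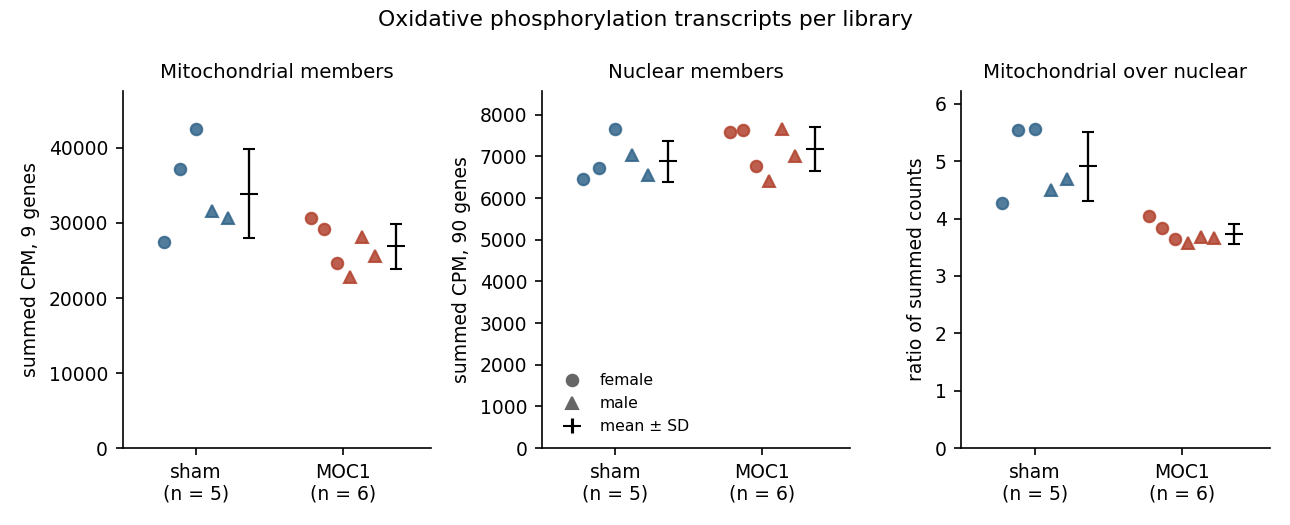
Each point is 1 library (circles female, triangles male), with the mean and SD of its group beside it. The left and middle panels plot summed CPM of the 9 mitochondrial and 90 nuclear genes and the right panel the ratio of their summed counts. The mitochondrial sums overlap between groups, the nuclear sums span nearly the same range, and the ratios, 3.57 to 4.04 in MOC1 and 4.26 to 5.56 in sham libraries, do not overlap.

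By complex, the same ratio was taken between mitochondrial and nuclear subunits. For complex I it ran from 5.31 to 6.15 in MOC1 and from 6.33 to 8.29 in sham libraries. For complex IV, where mt-Co1 carries nearly all mitochondrial counts, it ran from 8.24 to 9.81 and from 10.3 to 13.1. Neither complex showed overlap between the groups. For complex III, with mt-Cytb as its one mitochondrial gene, it ran from 7.0 to 9.54 in MOC1 and from 9.12 to 12.6 in sham libraries, so that sham female 1 fell inside the MOC1 range. The mean log2 differences were -0.37, -0.42 and -0.36 for complexes I, III and IV. Over the 5 mitochondrial genes with no window in the chromosome 1 copies (mt-Nd1, mt-Nd2, mt-Nd5, mt-Nd6 and mt-Cytb), a choice made after the data had been seen, the ratio to nuclear genes again did not overlap, at 1.84 to 2.15 in MOC1 and 2.25 to 3.0 in sham libraries.

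In edgeR's quasi-likelihood test with Benjamini-Hochberg adjustment over all 16817 tested genes, 5 of the 96 tested oxidative phosphorylation genes were called at an adjusted p under 0.05. The same test called 6.62% of all genes, 2.34% as higher and 4.28% as lower in MOC1 libraries. Among the 7 mitochondrial genes 3 fell (mt-Nd2, mt-Cytb and mt-Nd4) and none rose. All 7 were called higher when libraries were scaled to satellite glia markers, which called 10281 of all 16817 genes higher. Among the 89 nuclear genes 2 rose (Cox7a2l and Ndufaf5), a share close to the 2.34% of all genes that rose. None of the 89 fell, where 4.28% of all genes fell. With pan-neuronal scaling, however, 6 of the 89 were called lower, where 2128 of all 16817 genes were called lower. With satellite glia scaling 83 of the 89 were called higher, where 10281 of all genes were. The median log2 fold change was -0.26 over the mitochondrial genes, 0.06 over the nuclear genes and -0.03 over all tested genes. All 7 mitochondrial genes had a value below 0, while 55 nuclear genes stood above 0 and 34 below. Cox7a2l was the only one of the 96 whose groups did not overlap, where 2.15% of all genes were higher and 4.18% lower without overlap.

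**Figure D3:**
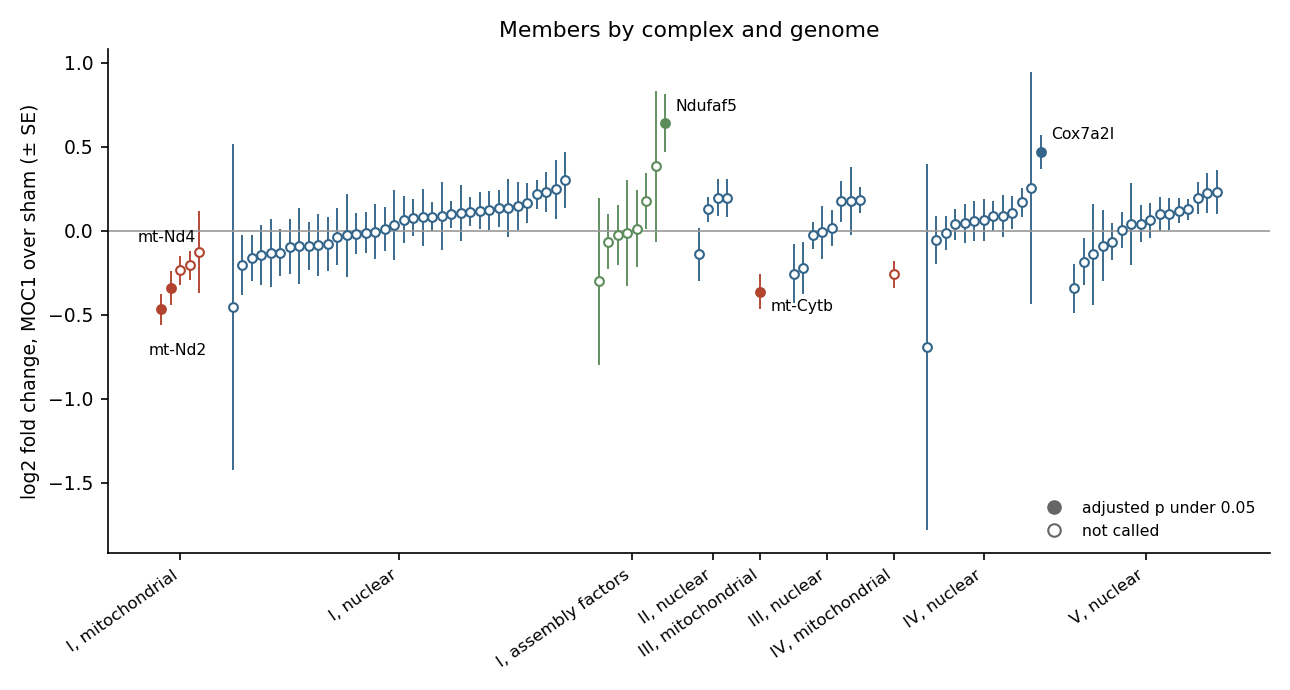
Log2 fold changes of MOC1 over sham with SE for 92 tested genes, grouped by complex and genome (red mitochondrial, blue nuclear, green assembly factors) and ordered by size within each group, with filled points for an adjusted p under 0.05. With the TMM scaling shown all red points lie below 0, with satellite glia scaling above 0, and most blue points lie near 0; 4 genes with fewer than 200 summed counts (Cox4i2, Cox6a2, Cox6b2 and Atp5g2) are not drawn.

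mt-Nd2, a proton-pumping membrane subunit of complex I, was lowest at 1909, had a median of 2295 and was highest at 2551 CPM in MOC1 libraries. In sham libraries it was 2485, 3536 and 3902 CPM in females and 3087 and 2876 in males. Of the 6 MOC1 libraries 5 lay below every sham library, and sham female 1 was the one sham library inside the MOC1 range. The means were 2276 ± 234 (SD, n = 6) and 3177 ± 555 CPM (SD, n = 5), a log2 fold change of -0.47 (SE 0.09) with an adjusted p of 0.0036 in edgeR's quasi-likelihood test. As a share of the summed mitochondrial counts, mt-Nd2 ran from 8.0% to 8.79% in MOC1 and from 9.02% to 9.92% in sham libraries, without overlap. The share of mt-Nd5, another membrane subunit of complex I, ran the other way without overlap, from 10.74% to 12.05% in MOC1 and from 10.16% to 10.62% in sham libraries. Shares of a total are bound to each other, so a lower share of some genes raises that of others. The level of mt-Nd5 itself had a log2 fold change of -0.20 and was not called. Of the windows of mt-Nd2, 5.70% also occur in Gm13339, a nuclear copy.

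mt-Cytb, the haem-carrying cytochrome b of complex III, had a lowest, median and highest value of 4257, 5254 and 6330 CPM in MOC1 libraries. Sham females stood at 5344, 7688 and 8822 CPM and sham males at 6638 and 6244. The groups overlapped, with 3 of 5 sham libraries above every MOC1 library. mt-Cytb fell by 0.36 on the log2 scale (SE 0.10, adjusted p 0.0427 in edgeR's quasi-likelihood test). mt-Nd4, a further membrane subunit of complex I, ran from 1594 over a median of 1820 to 2220 CPM in MOC1 libraries. Sham females stood at 1828, 2569 and 3047 CPM and sham males at 2294 and 2159, again with overlap. It fell by 0.34 (SE 0.10, adjusted p 0.0472).

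The calls of mt-Cytb and mt-Nd4 depended on single libraries. mt-Cytb stayed under the threshold in edgeR's quasi-likelihood test only without MOC1 female 1, MOC1 male 2 or sham female 1, and mt-Nd4 only without MOC1 female 1 or sham female 1. Leaving out any one of the other libraries gave an adjusted p of up to 0.128 for mt-Cytb and 0.14 for mt-Nd4. mt-Nd2 was called without each of the 11 libraries in turn. Without sham female 1, which holds the high endothelial counts, 6 of the 7 mitochondrial genes were called lower, mt-Co1 among them at -0.32 (adjusted p 0.00359).

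The other 4 tested mitochondrial genes did not pass in edgeR's fit of all 11 libraries. DESeq2 on the same libraries called mt-Nd2 (adjusted p 1.97e-05) and mt-Co1 (adjusted p 0.0186). It did not call mt-Cytb (adjusted p 0.0843) or mt-Nd4 (adjusted p 0.0774). mt-Co1 ran from 9579 over a median of 10646 to 12145 CPM in MOC1 libraries and stood at 11223, 14468 and 16272 CPM in sham females and 11680 and 12050 in sham males. Its log2 fold change was -0.26 (SE 0.08, adjusted p 0.0624 in edgeR's quasi-likelihood test). mt-Nd1, which sits next to the quinone site of complex I, had -0.24 (adjusted p 0.113), mt-Nd5 -0.20 (adjusted p 0.199) and mt-Nd6 -0.13 (adjusted p 0.866). With TMM scaling all 7 genes had lower values in MOC1 libraries and 3 passed the threshold in edgeR, with the opposite sign under satellite glia scaling.

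**Figure D4:**
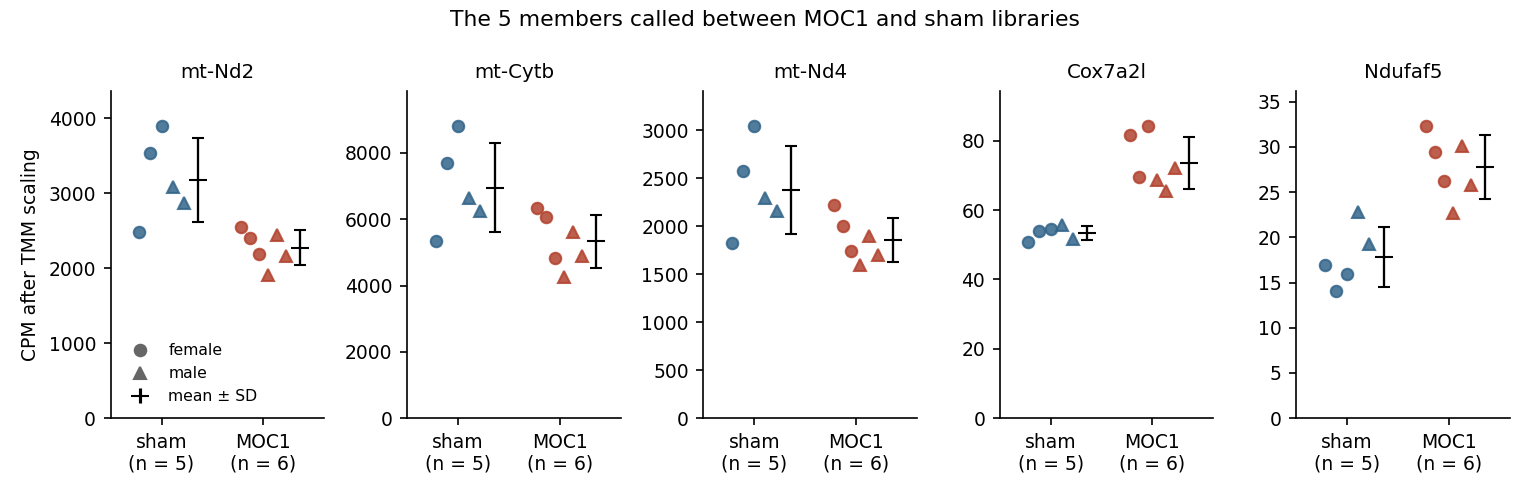
CPM after TMM scaling in each library (circles female, triangles male) with group mean and SD for the 5 genes called between MOC1 and sham libraries, each axis starting at 0. The 3 mitochondrial genes are lower in MOC1 libraries with overlap (higher with satellite glia scaling), Cox7a2l is higher in all 6 MOC1 libraries than in any sham library, and Ndufaf5 is higher in 5 of 6.

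Complex I is the largest complex of the chain. None of its 36 nuclear subunits was called, with log2 fold changes from -0.45 (Ndufb4, at 343 summed counts) to 0.30 (Ndufs3) and a median of 0.05. Of the electron-carrying core subunits, Ndufs1 stood at 169 ± 11.1 CPM in MOC1 (SD, n = 6) and 156 ± 17.3 in sham libraries (SD, n = 5), and Ndufv1, which holds the NADH site, at 129 ± 18.8 and 123 ± 13.89. After Ndufb4 the lowest were the accessory subunits Ndufs6 at -0.20 and Ndufa13 at -0.16, and the highest besides Ndufs3 were the accessory subunits Ndufa11 at 0.25 and Ndufb6 at 0.23. Their adjusted p lay between 0.33 and 0.882 in edgeR's quasi-likelihood test, Ndufb4 included.

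Ndufaf5, an assembly factor that hydroxylates an arginine of the complex I subunit Ndufs7, was the one called among the 8 assembly factors. It ran from 22.7 over a median of 27.9 to 32.4 CPM in MOC1 libraries. Sham females stood at 17.0, 14.1 and 16.0 CPM and sham males at 22.8 and 19.3. Of the MOC1 libraries 5 lay above every sham library, and MOC1 male 1 lay just under sham male 1. Ndufaf5 rose by 0.64 on the log2 scale (SE 0.17, adjusted p 0.0312 in edgeR's quasi-likelihood test). It kept its call without 5 of the 11 libraries left out singly, and without MOC1 female 1 or 2, any sham female or sham male 3 the adjusted p lay between 0.0582 and 0.0967. The other 7 assembly factors ran from -0.30 (Ndufaf8) to 0.38 (Ndufaf6).

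Complex II, succinate dehydrogenase, has no mitochondrial subunit and none of its 4 genes was called. Sdha, the flavoprotein that oxidises succinate, stood at 298 ± 24.7 CPM in MOC1 (SD, n = 6) and 273 ± 15.8 in sham libraries (SD, n = 5), a log2 fold change of 0.13. Sdhb, the iron-sulfur subunit, and Sdhd, a membrane anchor, both stood at 0.20, and Sdhc, the other anchor, at -0.14. The adjusted p of the 4 lay between 0.368 and 0.741 in edgeR's quasi-likelihood test.

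Complex III had no call among its 8 nuclear subunits, with a median log2 fold change of 0.00. Uqcrc1, a core subunit, stood at 0.18 (adjusted p 0.208 in edgeR's quasi-likelihood test), at 152 ± 16.8 CPM in MOC1 (SD, n = 6) and 135 ± 8.27 in sham libraries (SD, n = 5). Uqcrfs1, the Rieske iron-sulfur protein, and Uqcr10, a small subunit, each stood at 0.18. The lowest were the small subunits Uqcr11 at -0.25 and Uqcrb at -0.22, followed by the core subunit Uqcrc2 at -0.03.

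Cox7a2l, grouped here by its name with complex IV, encodes a protein that joins complexes III and IV into a supercomplex. It ran from 65.5 over a median of 70.7 to 84.3 CPM in MOC1 libraries. Sham females stood at 50.8, 53.8 and 54.5 CPM and sham males at 55.6 and 51.8. All 6 MOC1 libraries lay above all 5 sham libraries. The means were 73.6 ± 7.61 (SD, n = 6) and 53.3 ± 1.97 CPM (SD, n = 5), a rise of 0.47 on the log2 scale (SE 0.10, adjusted p 0.0063 in edgeR's quasi-likelihood test). The call held without each of the 11 libraries in turn, with adjusted p between 0.00604 and 0.0199. Of its 75-base windows 10.4% also occur in another gene, Gm6969. The pan-neuronal markers given above were also higher in MOC1 libraries, and scaled to them Cox7a2l stood at 0.20 (adjusted p 0.269) and Ndufaf5 at 0.36 (adjusted p 0.195).

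No other nuclear gene of complex IV was called. Cox4i1 and Cox5a, subunits next to the catalytic core, stood at 0.11 and 0.09, and Cox5b, a zinc-binding subunit, at -0.05. Several subunits of complex IV exist as a widely expressed and a tissue-restricted form. Of the widely expressed forms, Cox6a1 averaged 95.4, Cox6b1 111, Cox7a2 84.9 and Cox8a 91.5 CPM in sham libraries, with log2 fold changes from 0.04 to 0.09 in MOC1. Ndufa4 stood at 165 ± 15.01 CPM in MOC1 (SD, n = 6) and 148 ± 15.3 in sham libraries (SD, n = 5), a log2 fold change of 0.17, and its hypoxia-associated relative Ndufa4l2 had 0 counts.

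The restricted forms were rare. Cox8b had 0 counts. Cox6a2, the muscle form, had 17 counts in MOC1 female 2 and 40 in MOC1 female 3 and 0 in the other 9 libraries. Cox6b2, the testis form, had 91 counts in all, 40 of them in MOC1 female 3. Cox4i2 had 21, 20, 0, 5 and 10 counts in the sham libraries and 1, 0, 0, 1, 0 and 2 in the MOC1 libraries (adjusted p 0.293 in edgeR's quasi-likelihood test), and Cox7a1 210 in all (adjusted p 0.832). These genes are too sparse for a fold change to be read.

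Complex V, ATP synthase, had no call among its 17 genes, with a median log2 fold change of 0.06. The catalytic subunits Atp5a1 and Atp5b, alpha and beta of the F1 head, stood at 745 ± 40.3 and 952 ± 101 CPM in MOC1 (SD, n = 6) and 685 ± 46.6 and 879 ± 45.1 in sham libraries (SD, n = 5). Their log2 fold changes were 0.13 and 0.12 (adjusted p 0.3 and 0.424 in edgeR's quasi-likelihood test). Atp5e, the epsilon subunit of the stalk, had the lowest value of the complex at -0.34 (SE 0.15, adjusted p 0.202), followed by Atp5k at -0.18 and Atp5g1 at -0.14. Atp5o, which links head and stator, and Atp5j2, a membrane subunit, each stood at between 0.22 and 0.23. The c-ring is encoded by 3 genes for one protein: Atp5g3 stood at 0.20 (adjusted p 0.282), and Atp5g2 had 80 counts in all, 52 of them in MOC1 female 3, with 35.8% of its windows shared with other genes.

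None of the nuclear subunits of complexes I, II, III and V was called in edgeR or DESeq2. In edgeR 1 of 36 (Ndufa9), 0 of 4, 1 of 8 (Uqcrc1) and 2 of 17 (Atp5e and Atp5g2) had an unadjusted p under 0.05. Over all 16817 tested genes, 1411 were higher and 1693 lower at that threshold. Precision followed the level. The 18 nuclear genes with a mean of at least 100 CPM had a median SE of 0.09, and 17 of the 18 stood above 0, at up to 0.20. The 71 tested nuclear genes under 100 CPM had a median SE of 0.16, with 38 above 0 and 33 below.

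Within each sex the mitochondrial genes pointed the same way. In females edgeR's quasi-likelihood test called Ndufaf5 (log2 0.90, adjusted p 0.0269) and Cox7a2l (0.56, adjusted p 0.0229) as higher and mt-Nd2 (-0.48, adjusted p 0.0419) as lower, where it called 4.48% of all genes, 1.33% as higher and 3.15% as lower. In males, with 2 sham libraries, it called 0 of the 96, where it called 1.25% of all genes, 0.166% as higher and 1.09% as lower. At an unadjusted p under 0.05 in males, 1 of the 96 was higher and 5 were lower, where 527 of all 16817 genes were higher and 810 lower. DESeq2 called 1 of the 96 in males, mt-Nd2. The log2 fold changes in males were -0.46 for mt-Nd2 (adjusted p 0.194), 0.36 for Cox7a2l (adjusted p 0.509) and 0.32 for Ndufaf5 (adjusted p 0.881). The median over the 7 mitochondrial genes was -0.30 in females and -0.27 in males. The test of the difference between the sexes called 0 of the 96 in edgeR and in DESeq2, where edgeR called 0% of all genes. In edgeR 2 of the 96 had an unadjusted p under 0.05, both above 0. Over all 16817 genes 245 above 0 and 463 below 0 had one.

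The direction of these values rests on how libraries are scaled. Scaled to the pan-neuronal markers, the median of all tested genes moved to -0.31, and the mitochondrial median to -0.53, with 6 of the 7 called lower. There the nuclear median was -0.21 and 6 nuclear genes were called lower, with none higher. Of all 16817 genes that scaling called 2128 lower and 27 higher. Scaled to the satellite glia markers, the median of all genes moved to 1.14, and 10281 of all 16817 genes were called higher. Among these were the 7 mitochondrial and 83 of the 89 nuclear genes. Relative to the median of all genes, the mitochondrial median stood at -0.23 with TMM, -0.22 with the pan-neuronal markers and -0.24 with the satellite glia markers. The nuclear median stood at 0.09, 0.09 and 0.08 above the median of all genes in the same order. A change of scaling shifts all genes by nearly the same amount, so these gaps could hardly differ between scalings. With the satellite glia share as a covariate, edgeR called 0 of the 96 and 0 of all genes, with 12 of the 96 higher and 3 lower, and 767 of all genes higher and 540 lower, at an unadjusted p under 0.05. The mitochondrial median was then 0.05, which is -0.01 relative to all genes. That share separates the groups without overlap, so tumour and glial share cannot be told apart in this fit.

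**Figure D5:**
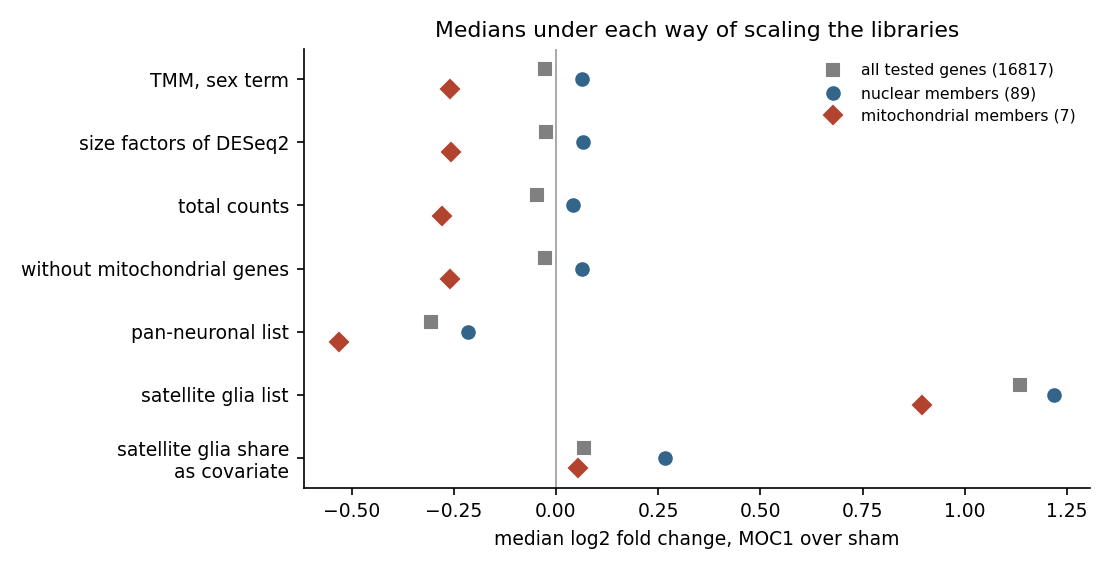
Median log2 fold changes of MOC1 over sham for all tested genes (squares), 89 nuclear (circles) and 7 mitochondrial genes (diamonds) under each scaling, with the glial covariate in the last line. In every line but the last the mitochondrial median lies below that of all genes by between 0.22 and 0.24. Scaling shifts all genes by nearly the same amount, so this gap could hardly change between those lines. In the last line the mitochondrial median is -0.01 relative to all genes.

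The nuclear promoters were searched for motifs of factors known to bind genes of this pathway. RefSeq promoters on GRCm38.p6, from 250 bases before to 50 bases after the start of a gene, were matched for 74 of the 90 nuclear genes. The motif of NRF1, the 10-letter palindrome printed in capitals in the sequences of this paragraph, was in 7 of the 74 (9.46%) and in 1.07% of the promoters of all 27025 genes in the table. The ETS motif CCGGAAG, which GABPA binds, was in 25.7% against 9.93%, and the YY1 motif AAGATGGC in 14.9% against 3.19%. Of the called nuclear genes, the promoter of Ndufaf5 held the NRF1 motif, and the window searched for Cox7a2l held none of the 3. That window, chr17:83514284-83514583, lies inside the counted gene, chr17:83501918-83517330 on the minus strand. The outermost annotated start of Cox7a2l was not searched. The 30 bases around the NRF1 motif (capitals) are shown for Ndufaf5, at chr2:140170652-140170681 on the plus strand, and for 2 genes that were not called, the complex V gene Atp5k at chr5:108434430-108434459 on the minus strand and the complex III gene Uqcrc1 at chr9:108936668-108936697 on the plus strand.
Ndufaf5: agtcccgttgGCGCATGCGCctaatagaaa
Atp5k: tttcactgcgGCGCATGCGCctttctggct
Uqcrc1: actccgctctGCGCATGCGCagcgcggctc
These 3 promoters hold the same 10 letters, and the log2 fold changes of their genes were 0.64, -0.18 and 0.18. Of the 7 genes with the motif, Atp5k was the only one below 0, where 34 of the 89 tested nuclear genes were below 0. Only Ndufaf5 was called, where 2.34% of all genes were called higher. Ndufaf4 stood at 0.18 and Ndufa11 at 0.25, with Cox6a1 and the sparse Atp5g2 also above 0. With pan-neuronal scaling Ndufa11, Uqcrc1 and Cox6a1 changed sign. Whether the motif goes with the change was not tested.

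Genes around the pathway were read from lists of other mitochondrial and glycolytic functions. Over all genes the test called 2.34% as higher and 4.28% as lower, the background for each count of calls in these lists. At an unadjusted p under 0.05, 1411 of all 16817 tested genes were higher and 1693 lower, the background for each unadjusted count in them. Of 14 regulators of mitochondrial biogenesis 1 fell: Gabpa, the DNA-binding subunit of the ETS factor GABP, by 0.54 on the log2 scale (SE 0.13, adjusted p 0.0143 in edgeR's quasi-likelihood test). It stood at 40.8 ± 8.64 CPM in MOC1 (SD, n = 6) and 58.0 ± 5.93 in sham libraries (SD, n = 5), with overlap. Among the 14 regulators edgeR gave an unadjusted p under 0.05 to 1 higher and 3 lower genes, Gabpa included. Of 22 genes that transcribe, process or copy the mitochondrial genome none was called, with a median of 0.08. In that list edgeR gave 1 unadjusted p under 0.05, and DESeq2 called none. Those with the smallest p were Polg, the mitochondrial DNA polymerase, at -0.38 (adjusted p 0.09) and Supv3l1, a mitochondrial RNA helicase, at 0.37 (adjusted p 0.298).

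None of 35 further assembly factors was called, nor of Cyc1 and Cycs, nor of 18 genes of the tricarboxylic acid cycle. In those 3 lists edgeR's quasi-likelihood test gave an unadjusted p under 0.05 for 1, 0 and 3 genes, and DESeq2 called 0, 0 and 1. Cyc1 stood at 63.8 ± 6.50 CPM in MOC1 (SD, n = 6) and 63.3 ± 5.10 in sham libraries (SD, n = 5). The 2 cycle genes with the smallest p were Suclg2 at -1.09 (adjusted p 0.0595) and Pcx, pyruvate carboxylase, at -0.60 (adjusted p 0.111), and the assembly factors Sdhaf3 and Coa3 stood at 0.55 and -0.27.

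Of 9 tested nucleotide and proton carriers 1 fell, where 4.28% of all genes fell: Ucp2, an uncoupling protein of the inner membrane. It ran from 37.1 over a median of 39.6 to 54.9 CPM in MOC1 libraries, and stood at 115, 106 and 72.2 CPM in sham females and 79.0 and 70.1 in sham males. Every MOC1 library lay below every sham library, and the log2 fold change was -1.03 (SE 0.15, adjusted p 0.00022 in edgeR's quasi-likelihood test). Of 23 glycolysis genes 5 rose and 1 fell, where 2.34% of all genes rose and 4.28% fell. Slc2a3, the neuronal glucose transporter, rose by 0.58 (SE 0.11, adjusted p 0.00269), and Pfkp, a phosphofructokinase, by 0.34 (SE 0.07, adjusted p 0.00441). The other 3 that rose were Gpi1, Aldoa and Pkm, at between 0.20 and 0.25, named here after their values were seen. Aldoa counts as 2 of the 23, since the annotation lists 2 adjacent genes of that symbol, and the other one, with 149 counts in all, was not called. Slc16a1, a lactate and pyruvate transporter, fell by 0.69 (SE 0.13, adjusted p 0.00213). None of the 6 overlapped between the groups, where 2.15% of all genes were higher and 4.18% lower without overlap. The 6 were picked by their adjusted p in these same libraries, so the lack of overlap adds no separate evidence. For all of them the glial, neuronal and fibroblast marker sums move with the groups as given above, and the part of those sums in the calls was not tested.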

How the data were processed

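The values are the authors' stranded STAR read counts, 1 deposited file per library, with no normalization. The submitters' processing notes name Trimmomatic 0.35, STAR 2.7.1a, RSEM and GRCm38. No source used here gives the annotation release. The 4 totals that name no gene, among them multimapping reads, held between 18.7% and 21.5% of counts and were left out.

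Counts were fitted in R 4.3.3 with edgeR 4.0.16 (filterByExpr, TMM, quasi-likelihood test, sex as an additive term, 16817 genes, Benjamini-Hochberg threshold 0.05). A fit of the 4 groups gave the contrasts within each sex and their difference. CPM per gene are after TMM scaling, and sums are CPM of all gene counts. Of the gene identifiers 55141 matched GENCODE M21, in whose transcripts windows of 75 bases were looked up. Alternatives were DESeq2 1.42.0 and others given at the end.

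The members and lists were chosen with earlier results of these data known. Of the genes the rule names, 1 is not reported here. Named are all mitochondrial members, every called member, core subunits, isoform pairs, the 3 highest and 3 lowest nuclear subunits per complex, the assembly factor with the smallest p, and 2 or 3 genes per list.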

Additional observations from a re-analysis of the deposited data

Results flagged for a closer look

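Among 110 groups of values checked, 102 of named oxidative phosphorylation genes and 8 of mitochondrial to nuclear ratios, 9 held a highest or lowest library far from the others of its group, and chance alone gives such a value in about 1 in 20 groups. Sdhb, the iron-sulfur subunit of complex II, stood at 91.13 CPM in sham female 3 and between 71.85 and 74.54 in the other sham libraries. Uqcr11 of complex III stood at 14.26 CPM in MOC1 female 3 and between 24.76 and 30.54 in the other MOC1 libraries. The remaining 7 values come from sparse genes. mt-Co2 stood at 0.8264 CPM in sham male 1, against 0 in the other sham libraries. mt-Nd3 stood at 0.7629 CPM in sham male 1, against 0 to 0.05943, and at 0.07352 CPM in MOC1 female 3, against 0 in the other MOC1 libraries. Cox7a1 stood at 0.5411 CPM in sham female 2, against 1.589 to 1.902 in the other sham libraries. Cox6b2 stood at 2.941 CPM in MOC1 female 3, against 0 to 0.9271. Atp5g2 stood at 3.823 CPM in MOC1 female 3, against 0 to 1.065, and at 0.1804 CPM in sham female 2, against 0 in the other sham libraries. Of the 9 values 4 belong to MOC1 female 3, the library with the fewest genes detected (14180).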

How the results depend on the processing

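The log2 difference of -0.39 in the mitochondrial to nuclear ratio ran from -0.43 to -0.34 with single libraries left out. As a mean of log2 values it was -0.30. The ratios of the groups do not overlap, so leaving out libraries could not reverse the sign of that difference. Library scaling does not enter a ratio of counts within a library, and the glial covariate was not applied to it. The 5 called members became 8 with no low-count filter, 2 with the replicate block, 12 with pan-neuronal scaling, 90 with satellite glia scaling and 0 with the glial covariate, and 2 to 7 with single libraries left out. The 3 mitochondrial calls became 6, 1, 6, 7 and 0 in that order, 6 without sham female 1, MOC1 female 3 and MOC1 male 2 together, and 1 to 6 with single libraries left out. DESeq2 gave 2 mitochondrial calls, mt-Nd2 and mt-Co1. The 2 nuclear calls became 1 with the block, 6 and 83 with the scalings, 1 without the 3 libraries, 0 with the covariate, and 1 to 2 singly. Over all genes, 1113 calls became 2155, 10324 and 0 with pan-neuronal scaling, glia scaling and the covariate. The calls within females ran from 0 to 6 and within males from 0 to 1 with single libraries left out, and DESeq2 gave 1 in males. The cause of these shifts was not tested.

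With satellite glia scaling, these log2 values turned positive and were called: mt-Nd1 0.92, mt-Nd2 0.69, mt-Nd4 0.81, mt-Nd5 0.95, mt-Nd6 1.07, mt-Cytb 0.78, mt-Co1 0.90, Ndufs6 0.98, Ndufa13 0.99, Sdhc 0.99, Uqcr11 0.87, Uqcrb 0.97, Uqcrc2 1.14, Cox5b 1.08, Atp5e 0.82, Atp5k 0.95 and Atp5g1 0.94. With the glial covariate mt-Nd4 stood at 0.0745 and mt-Cytb at 0.13, not called. Sign changes of genes called in neither fit were most frequent with pan-neuronal scaling, 23 of 49 named members.

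The replicate numbers of the labels did not pair the libraries: correlations of same-numbered libraries lay between -0.04 and 0.04, and 4 of 10 libraries correlated best with their own number. With the replicate block only mt-Nd2 (adjusted p 0.00563) and Cox7a2l (adjusted p 0.015) were called. Genes under about 10 CPM have too few counts here for their differences to be read.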
